A study of Mus musculus with 3 samples.

Results

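Amino acid transporter genes were read in C3H10T1/2 cells, a mouse mesenchymal stem cell line, on Affymetrix mouse genome arrays. They were taken as the probe sets annotated to a single gene of the solute carrier families SLC1, SLC3, SLC6, SLC7, SLC36, SLC38 and SLC43. This rule found 118 probe sets for 58 genes, out of 45101 probe sets on the array and 18193 genes with a probe set of their own. One array held untransfected C3H10T1/2 cells, another held the line after retroviral transfer of the fluorescent protein Venus (C3H10T1/2-V, here Venus), and the last held the line after transfer of Venus-Mkx (C3H10T1/2-VM). Mkx encodes Mohawk, a homeobox transcription factor of tendon and ligament. The study asked which genes differ in mesenchymal cells when Mkx is overexpressed, with the Venus cells as its control. Both viruses came from a pMIGR vector packaged in PLAT-E cells, and the culture medium held puromycin. There was 1 array per condition, so no difference given here has a replicate check. In RNA of whole cultures, fewer cells that express a gene and less RNA per cell cannot be told apart.

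The probe set for Mkx itself (1437492_at) read 6.88 in C3H10T1/2, 7.43 in Venus and 2.71 on the array labelled Venus-Mkx on the log2 scale, lowest where the label has Mkx added. Because this reading opposes the label, the third array is named throughout by its label, and whether the probe set falls within the Mkx sequence carried by the virus could not be settled. Outside that sequence it would read only the cells' own Mkx RNA and would not check the added Mkx. Of 11 mesenchymal marker genes with a probe set, 10 were above the floor on all 3 arrays, among them Col1a1, Col1a2, Vim and Prrx1. On the array labelled Venus-Mkx, Col1a1 and Thy1 of these 10 were at least 2-fold above both controls, by 1.34 and 1.42 from Venus on the log2 scale. A second Col1a1 probe set (1455494_at) was 0.82 above Venus. Of the 10, 6 were above Venus and 4 below, Pdgfra by −0.69 and Vim by −0.44. Of all 11169 genes that reached the floor on an array, 6.82% were 2-fold above both controls and 5.34% below. A count this small is therefore no result about the list. The floor is the median of all values, 4.34, and values under it cannot be told from background. The defining markers Ptprc, Adgre1 and Itgam of macrophages, Pecam1 and Cdh5 of endothelium, Cdh1 of epithelium and Snap25, Gfap and Mbp of neurons and glia lay under the floor on all 3 arrays. Other markers reached it, though not all of them on every array. Of the macrophage list these were Csf1r, a defining marker that read 4.45, 5.39 and 6.62 in the order C3H10T1/2, Venus and the array labelled Venus-Mkx, and Cd14, with 6.62, 6.99 and 6.49. The probe sets of Csf1r disagree, as 1419873_s_at read 4.43, 4.61 and 5.40 and 1423593_a_at read 4.80, 4.70 and 4.91. Tek of endothelium read 4.53, 4.02 and 5.95 in that order, with the Venus value under the floor. Epcam of epithelium read 6.74, 7.03 and 7.60, and the neuronal gene Rbfox3 4.91 on each array. The other probe set of Epcam (1416579_a_at) read 3.06 on each array, and the other probe sets of Rbfox3 were under the floor throughout. Stmn2, a gene of growing neurons, read 6.94 in C3H10T1/2, 8.04 in Venus and 10.20 on the array labelled Venus-Mkx. Summed on the linear scale, the 9 neuron and glia markers came to 210.4, 353 and 1267 on the same arrays. Of these only Stmn2 and Rbfox3 reached the floor, and Rbfox3 did not differ, so this rise is mainly that of Stmn2 and not of the list. The 8 macrophage markers summed to 166, 214 and 237, the 7 endothelial ones to 64.5, 56.5 and 103 and the 6 epithelial ones to 159, 186 and 246. All endothelial markers but Tek and all epithelial ones but Epcam were under the floor, so these sums differ mainly through Tek and Epcam. Probe sets at the 3′ end of actin exceeded those at its 5′ end by 0.46, 0.50 and 0.65, and for Gapdh by −0.016, 0.10 and 0.16. The part of these in the transporter values was not tested.

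Amino acids cross membranes on carriers that differ in the ion they use and the side chains they accept. SLC1 and SLC6 carriers draw amino acids or transmitters inward with sodium, SLC38 carriers move glutamine and other small neutral amino acids with sodium, SLC36 carriers use protons, and SLC43 carriers pass large neutral amino acids without an ion. SLC7 light chains work as exchangers joined to an SLC3 heavy chain, which brings them to the cell surface, whereas the cationic SLC7 carriers work alone. Leucine and glutamine taken up by these carriers feed protein synthesis and the mTORC1 kinase complex, and the transcription factor ATF4 induces several of the carriers when amino acids run short.

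On the array labelled Venus-Mkx, the transporters for large neutral amino acids differed from the controls in opposite directions. Slc43a2, which encodes the leucine and phenylalanine carrier LAT4, read 11.5-fold above Venus, and Slc7a5, which encodes the exchanger LAT1, read 2.67-fold below it. Slc38a1, Slc1a6, Slc1a4 and Slc7a2 were also at least 2-fold below both controls, and Slc43a1 was just over 2-fold above both. Of the 58 genes, 31 were measured, meaning that the highest of the 3 values of the probe set used for the gene reached the floor. That is 53.4%, against 61.4% of all genes. Of these, 27 were at or above the floor on all 3 arrays. Slc1a6 was so on both controls only and therefore had to read lower on the array labelled Venus-Mkx. Slc36a2 and Slc36a3 were so on that array only and had to read higher there. Slc7a11 passed on the C3H10T1/2 array alone. A gene was called higher or lower when it differed from each control by 2-fold or more, the same way both times. Of the 31 measured transporters, 2 were called higher, 6.45% of them, against 6.82% of 11169 measured genes. The 5 called lower made up 16.1%, against 5.34% of all measured genes. The other 24 were neither, and 16 of these lay within 0.5 of both controls on the log2 scale. The median log2 difference of the measured transporters from Venus was 0.045, against 0.00 for all measured genes. There were 16 transporters above Venus (51.6%), 13 below (41.9%) and 2 equal to it. Over all measured genes 42.8% were above Venus, 45.8% below and 11.4% equal. The 16 include Slc36a2 and Slc36a3, and the 13 and the 5 called lower include Slc1a6, whose directions the floor had fixed. No test was possible, so these shares are a description.

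**Figure D1:**
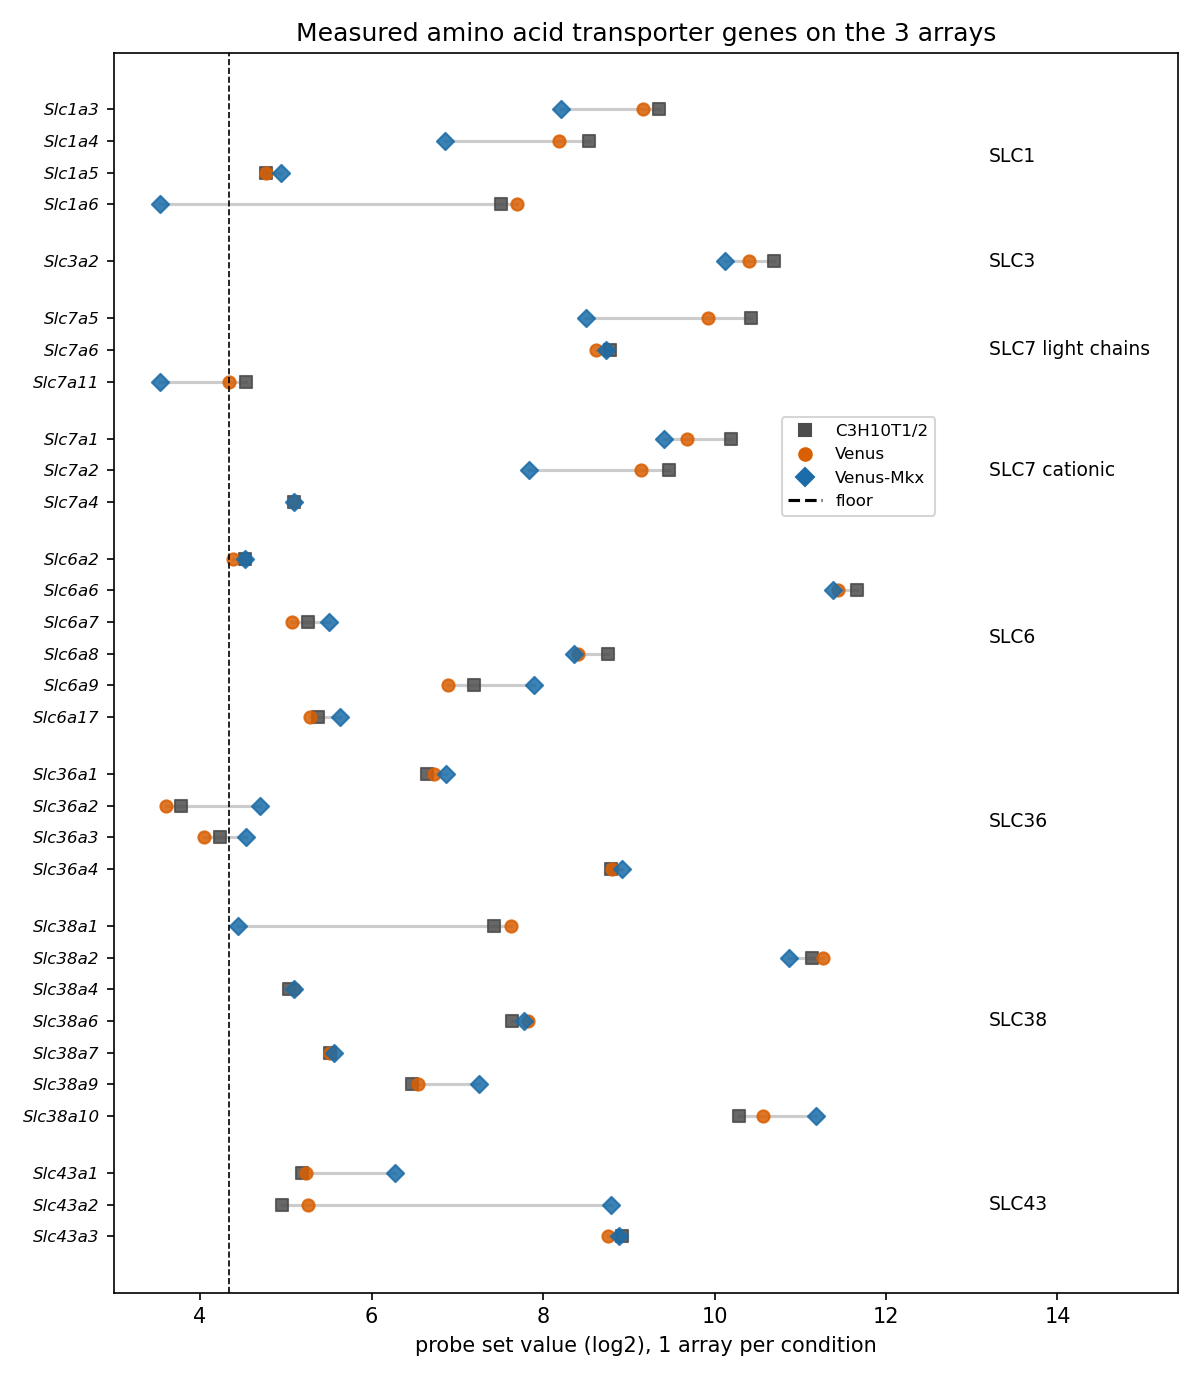
Log2 probe set values of the 31 measured amino acid transporter genes on the 3 arrays, 1 array per condition, grouped by family. Squares are C3H10T1/2, circles Venus and diamonds the array labelled Venus-Mkx, and the dashed line is the floor of 4.34. The diamonds of Slc1a6 and Slc38a1 lie far to the left of the controls and that of Slc43a2 far to the right.

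RefSeq promoters of the assembly GRCm38.p6, running from 250 bases before to 50 after each gene's start, were matched by symbol to 41 of the 58 genes. Short motifs were searched on both strands. The first was TGATGNAA, the core of the amino acid response element that ATF4 binds with its partners, the second was TGACNNNGC, the core of the antioxidant response element, and the third was GAAANNGAA, from the interferon-stimulated response element. Of the genes called higher or lower, Slc1a4, Slc1a6, Slc43a1 and Slc43a2 were matched. Their starts are shown because these are the called transporters with a promoter here, from 100 bases before to 20 after the start and in the direction of the gene, with a motif match in capitals.

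Slc1a4, chr11:20332694-20332813, minus strand: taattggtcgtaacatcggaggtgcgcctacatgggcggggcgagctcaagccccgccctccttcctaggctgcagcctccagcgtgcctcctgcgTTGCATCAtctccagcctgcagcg
Slc1a6, chr10:78780396-78780515, plus strand: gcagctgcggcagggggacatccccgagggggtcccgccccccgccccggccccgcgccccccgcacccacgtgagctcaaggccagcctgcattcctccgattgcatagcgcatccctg
Slc43a1, chr2:84840223-84840342, plus strand: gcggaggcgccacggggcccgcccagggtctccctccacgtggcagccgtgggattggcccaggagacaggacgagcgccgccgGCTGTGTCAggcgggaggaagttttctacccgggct
Slc43a2, chr11:75531594-75531713, plus strand: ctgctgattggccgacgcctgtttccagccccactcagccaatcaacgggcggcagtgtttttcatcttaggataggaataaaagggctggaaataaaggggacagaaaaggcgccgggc

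The match in Slc1a4, which lies across its start, is TGATGNAA on the opposite strand, and that in Slc43a1 is TGACNNNGC, also on the opposite strand. Slc1a6 and both promoters of Slc43a2 in the table held none of the motifs in their 300 bases. TGATGNAA stood in 8.06% of 62 promoters of transporter genes and in 3.97% of all 32851 promoters, TGACNNNGC in 17.7% against 12.4%, and GAAANNGAA in 8.06% against 8.56%. The transporter promoters with TGATGNAA belonged to 4 genes, namely Slc1a4, Slc6a21, Slc7a7 and Slc7a11. Of these, only Slc1a4 was called, Slc7a11 was not called, and Slc6a21 and Slc7a7 were under the floor. A match describes these letters only.

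Slc1a6, Slc1a4 and Slc1a3 of the SLC1 family all read lower on the array labelled Venus-Mkx. Slc1a6 encodes EAAT4, a glutamate carrier best known from cerebellar neurons. Its only probe set (1418933_at) read 7.51 in C3H10T1/2, 7.70 in Venus and 3.54 on the array labelled Venus-Mkx, the last under the floor. It was therefore at least 10.2-fold lower than Venus and at least 9.0-fold lower than C3H10T1/2, while the controls stood close together. Slc1a4 encodes ASCT1, an exchanger of alanine, serine and cysteine. It read 8.54 in C3H10T1/2, 8.18 in Venus and 6.85 on the array labelled Venus-Mkx, a log2 difference of −1.33 from Venus and −1.69 from C3H10T1/2. Its other probe sets went the same way, 1423549_at by −1.10 and −1.26 and 1423550_at by −0.76 and −0.54, the last less than 2-fold. Slc1a3 encodes the glutamate carrier GLAST. The probe set used (1443749_x_at) read 9.35, 9.17 and 8.21 in C3H10T1/2, Venus and Venus-Mkx, and its difference of −0.96 from Venus was just short of 2-fold. All 6 of its probe sets were below both controls, from −0.84 to −1.25 against Venus, and 3 of them were at least 2-fold below both. Slc1a3 was called lower when probe sets marked _x_at and _s_at were left out, over the mean of all its probe sets and with arrays centred on their medians. Slc1a5, which encodes the glutamine carrier ASCT2, read 4.77, 4.77 and 4.94. These values stood barely above the floor. The remaining genes of the family, Slc1a1, Slc1a2 and Slc1a7, did not reach the floor.

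Of the genes for heteromeric exchangers, Slc7a5 alone was called. Slc3a2 encodes 4F2hc, the heavy chain that LAT1 needs to reach the cell surface. It read 10.69 in C3H10T1/2, 10.40 in Venus and 10.12 on the array labelled Venus-Mkx, a difference of −0.27 from Venus and −0.57 from C3H10T1/2. Slc7a5, its light chain partner for leucine and other large neutral amino acids, read 10.43 in C3H10T1/2, 9.92 in Venus and 8.50 on the array labelled Venus-Mkx. The differences of its only probe set (1418326_at) were −1.42 from Venus and −1.93 from C3H10T1/2, so the light chain gene was further below the controls than the heavy chain gene. Venus itself differed from C3H10T1/2 by −0.51 for Slc7a5. Slc7a6, the light chain gene of the exchanger y+LAT2, read 8.78, 8.62 and 8.74 in C3H10T1/2, Venus and Venus-Mkx and differed little between any of them. Slc7a11 encodes xCT, which imports cystine for glutathione synthesis. It read 4.54 in C3H10T1/2, 4.34 in Venus and 3.53 on the array labelled Venus-Mkx. As only the C3H10T1/2 value reached the floor, the gene is shown only to be at least 1.14-fold lower in Venus-Mkx than in C3H10T1/2. Slc3a1, the heavy chain gene of kidney and gut exchangers, read 2.72 on each array, under the floor. The other 6 light chain genes, Slc7a7, Slc7a8 (LAT2), Slc7a9, Slc7a10, Slc7a12 and Slc7a13, were under it as well. Slc7a7, the light chain gene of y+LAT1, came nearest to it, with 2.92, 3.39 and 4.31.

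Slc7a2 was the cationic amino acid carrier gene that was called. It encodes CAT2, which takes up arginine, lysine and ornithine. The probe set used (1436555_at) read 9.47 in C3H10T1/2, 9.14 in Venus and 7.84 on the array labelled Venus-Mkx, a difference of −1.30 from Venus and −1.63 from C3H10T1/2. The probe set 1422648_at read 6.28, 6.09 and 4.07, the last under the floor, and was at least 3.35-fold lower than Venus. For 1426008_a_at, with 4.39, 3.95 and 2.59, both transduced lines were under the floor, so no difference from Venus is shown. The fourth was under the floor throughout. Slc7a1, which encodes CAT1, the widespread arginine carrier, read 10.20, 9.68 and 9.41. For Slc7a1 the difference between the controls, −0.52, was larger than the difference of −0.27 of the array labelled Venus-Mkx from Venus. Its probe set 1454992_at had these the other way, −0.33 between the controls and −0.40 from Venus. The probe set of Slc7a4 at the floor or above read 5.10 on all 3 arrays, and Slc7a3, Slc7a14 and Slc7a15 were under the floor.

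**Figure D2:**
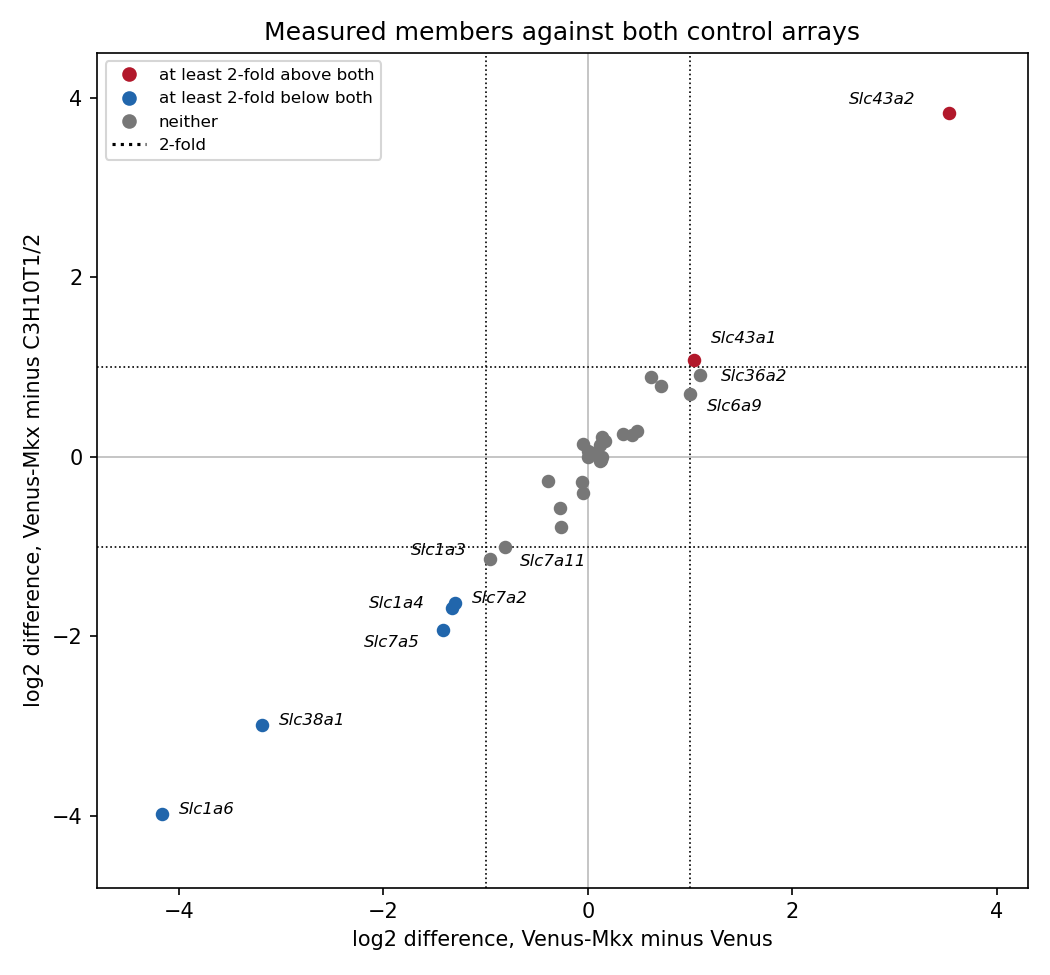
Log2 differences of the 31 measured transporter genes, from Venus on the x axis and from C3H10T1/2 on the y axis, 1 array per condition. Red points are at least 2-fold above both controls, blue points at least 2-fold below both, grey points neither, and dotted lines mark 2-fold. Slc43a2 lies alone at the upper right, and Slc1a6 and Slc38a1 lie at the lower left.

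Among the sodium-coupled neutral carriers, Slc38a1 was far below both controls and the other measured genes were not called. Slc38a1 encodes SNAT1, a glutamine carrier. The probe set used (1454764_s_at) read 7.43 in C3H10T1/2, 7.63 in Venus and 4.44 on the array labelled Venus-Mkx, that is 9.10-fold below Venus and close to the floor. The other probe set (1415903_at) read 5.43, 5.49 and 4.54 and differed by −0.95 from Venus, under 2-fold. Both probe sets were thus lower, but by amounts that differ, and without the _s_at probe set the gene was not called. Slc38a2 encodes SNAT2, the carrier that cells raise when amino acids run short. It read 11.13 in C3H10T1/2, 11.26 in Venus and 10.87 on the array labelled Venus-Mkx, and its other probe sets differed by −0.42 and −0.23 from Venus. Slc38a9, the lysosomal arginine sensor that signals to mTORC1, read 6.47, 6.54 and 7.25, a difference of 0.71 from Venus and 0.78 from C3H10T1/2. Of its 7 probe sets, 6 were above Venus, by up to 1.07, and 1 read equal on all arrays. Slc38a10 read 10.29, 10.56 and 11.18, and was 0.62 above Venus and 0.89 above C3H10T1/2. Of its 7 probe sets, 6 reached the floor, and their differences from Venus ran from 0.00 to 0.87. Its differences and those of Slc38a9 pointed upward without being called. Slc38a4, Slc38a6 and Slc38a7 lay within 0.05 of Venus, and Slc38a3 and Slc38a5 were under the floor.

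The SLC43 genes included both genes called higher. Slc43a2 (1439965_at) read 4.95 in C3H10T1/2, 5.26 in Venus and 8.79 on the array labelled Venus-Mkx, a difference of 3.53 from Venus and 3.83 from C3H10T1/2. A second probe set (1434308_at) read 3.36, 3.76 and 7.24. As both of its controls were under the floor, it is shown only to be at least 7.43-fold higher than either. The third probe set was under the floor on all arrays, and over the mean of all 3 probe sets the difference of the gene from Venus was 2.67. Both probe sets that reached the floor therefore read far above it on the array labelled Venus-Mkx and near or under it on the controls. Slc43a1, which encodes the leucine carrier LAT3, read 5.19 in C3H10T1/2, 5.23 in Venus and 6.27 on the array labelled Venus-Mkx. Its differences of 1.04 and 1.08 only just passed 2-fold, and the gene was not called once arrays were centred on their medians. Slc43a3, a nucleobase carrier gene in spite of its family name, read 8.92, 8.76 and 8.89.

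**Figure D3:**
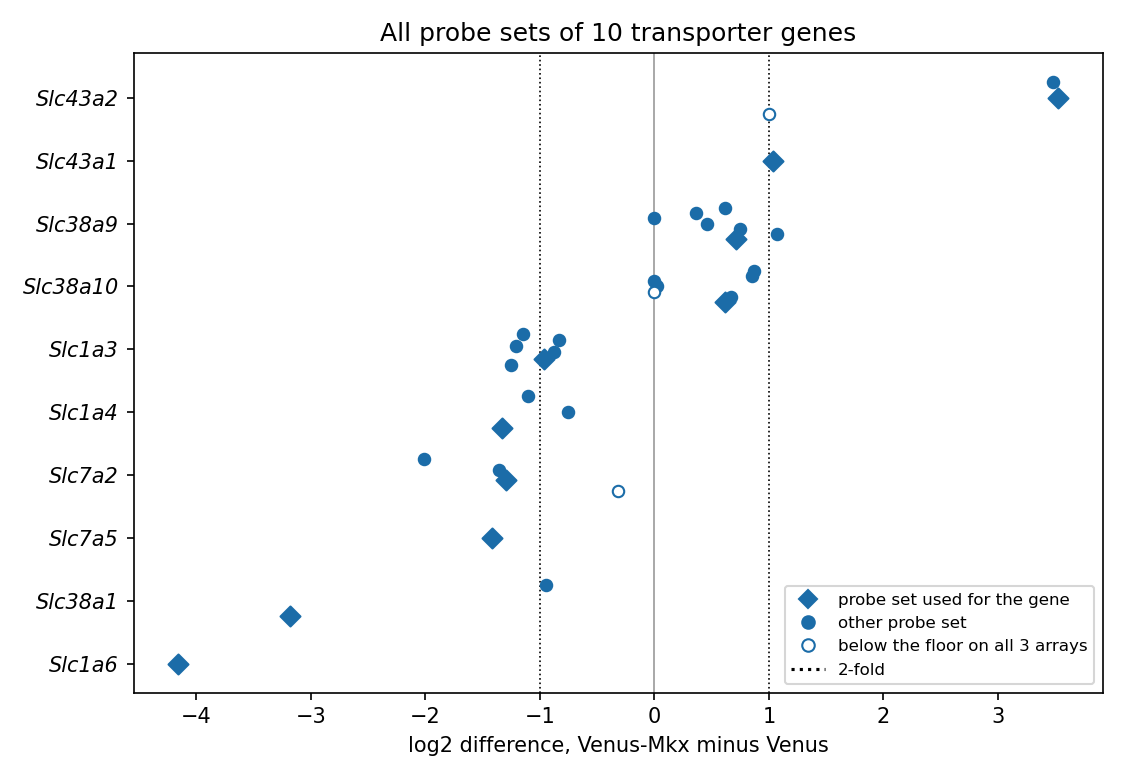
Log2 difference of the array labelled Venus-Mkx from the Venus array, for every probe set of 10 transporter genes. Diamonds are the probe sets used for the gene, circles the others, open symbols probe sets under the floor on all 3 arrays, dotted lines mark 2-fold, and differences from a value under the floor are drawn as read. All 6 points of Slc1a3 lie between −0.84 and −1.25, whereas the points of Slc38a1 lie apart.

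None of the measured genes of the SLC6 and SLC36 families was called. Slc6a6, the taurine carrier gene, had the highest reading of all transporters, 11.67 in C3H10T1/2, 11.44 in Venus and 11.39 on the array labelled Venus-Mkx. Readings of different probe sets depend on their probes, so this is no comparison of levels. Its probe set 1421346_a_at differed by −0.27 from Venus, and 1420148_at read 5.07 on each array. Slc6a9, which encodes the glycine carrier GlyT1, read 7.19 in C3H10T1/2, 6.89 in Venus and 7.89 on the array labelled Venus-Mkx. It was 1.00 above Venus but 0.70 above C3H10T1/2, so it was not called, and a second probe set (1431812_a_at) read 5.75 on each array. The creatine carrier gene Slc6a8 read 8.76, 8.41 and 8.36, with the lower values in both transduced lines, while its other probe set (1448596_at) differed by −0.63 from Venus. The noradrenaline carrier gene Slc6a2, the proline carrier gene Slc6a7 and the vesicular carrier gene Slc6a17 were from 0.14 to 0.43 above Venus. The other 12 genes of the family were under the floor. They were the carrier genes for dopamine (Slc6a3), serotonin (Slc6a4), glycine (Slc6a5) and GABA (Slc6a11, Slc6a12 and Slc6a13), and Slc6a14, Slc6a15, Slc6a16, Slc6a18, Slc6a19 and Slc6a21. Slc36a2, a proton-coupled carrier gene for small neutral amino acids, read 3.78 in C3H10T1/2, 3.60 in Venus and 4.70 on the array labelled Venus-Mkx. With both controls under the floor it is shown only to be at least 1.28-fold higher. Slc36a3, also under the floor in both controls, read 4.24, 4.05 and 4.53. Slc36a1 and Slc36a4, at or above the floor on all arrays, were 0.14 and 0.11 above Venus.

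Between the controls, no measured transporter was 2-fold apart, against 2.04% of all measured genes, either way. At that share a group this small holds few such genes or none, so the count is no result about transporters. The log2 differences of Venus from C3H10T1/2 ran from −0.52 for Slc7a1 to 0.30 for Slc43a2, with 17 genes below, 11 above and 3 equal. Of the 5 genes called lower on the array labelled Venus-Mkx, Slc7a5, Slc7a2 and Slc1a4 differed between Venus and C3H10T1/2 in that direction too, by −0.51, −0.33 and −0.36, so that Venus lay between the other arrays for these genes. Slc1a6 and Slc38a1 were instead slightly higher in Venus, by 0.19 each. With 1 culture each, the vector and the culture cannot be told apart.

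The other genes of amino acid handling were counted in the same way. In the list for the response to amino acid shortage, 25 genes were measured, of which Cebpb was called higher, Cth and Trib3 were called lower and 22 were neither. Over all measured genes the shares called were 6.82% higher and 5.34% lower, so counts this small are no result about the list. The median was −0.22 from Venus and −0.50 from C3H10T1/2, with 16 genes below Venus and 7 above. Over all measured genes the medians were 0.00, with 45.8% below Venus and 42.8% above. Atf4, the regulator of this response, read 11.40 in C3H10T1/2 and 11.34 in both transduced lines. Trib3, an ATF4 target that dampens the response, read 8.85, 8.17 and 7.13, and its other probe set differed by −0.83 from Venus, under 2-fold. Asns, the asparagine synthetase gene, read 11.14, 10.72 and 9.85, and Psat1, of serine synthesis, 11.74, 11.47 and 10.49. These differed by −0.87 and −0.97 from Venus, short of 2-fold. Other uncalled genes of the list went the other way. Nupr1 read 9.57, 9.65 and 10.62, which was 0.97 above Venus and 1.05 above C3H10T1/2. Atf3 was 0.56 above Venus and 1.34 above C3H10T1/2. Cebpb, a transcription factor gene of stress and inflammation, read 10.40 in C3H10T1/2, 10.08 in Venus and 12.21 on the array labelled Venus-Mkx, and a second probe set was 2.42 above Venus.

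Of 31 measured amino acid enzymes, 1 was called higher, 3 were called lower and 27 were neither, against 6.82% higher and 5.34% lower over all measured genes. These genes had a median of −0.35 from Venus and −0.34 from C3H10T1/2, against 0.00 from either over all measured genes. Cdo1, which encodes cysteine dioxygenase of taurine synthesis, read 8.71 in C3H10T1/2, 9.35 in Venus and 4.81 on the array labelled Venus-Mkx. Cth, which encodes the cysteine-forming enzyme cystathionine γ-lyase, read 8.24, 7.38 and 5.03. Both were more than 2-fold below the controls, while the taurine carrier gene Slc6a6 differed by −0.06 from Venus. Csad, another enzyme gene of taurine synthesis in this list, went the other way, 0.59 above Venus and 0.92 above C3H10T1/2, and was not called. Got1, the cytosolic aspartate aminotransferase gene, differed by −1.10 from Venus and −1.20 from C3H10T1/2. Bckdha, a subunit gene of the complex that degrades branched-chain amino acids, read 6.89, 6.80 and 7.96 and was the gene called higher. The enzyme list and the shortage list share 8 genes, Cth and Asns among them, so their counts are not separate.

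None of 18 measured cytosolic aminoacyl-tRNA synthetase genes was called, against 6.82% higher and 5.34% lower over all measured genes, at which shares lists this short hold few calls or none. Of the 18, 14 were below Venus and 3 above, with a median of −0.25 from Venus and −0.45 from C3H10T1/2. Over all measured genes 45.8% were below Venus and 42.8% above, with medians of 0.00. Venus itself read below C3H10T1/2 for most of the 18, so part of the difference from C3H10T1/2 lay between the controls. Likewise none of 32 measured genes of mTORC1 amino acid sensing was called beside those shares, with a median of 0.016 from Venus and 0.0019 from C3H10T1/2. Mtor, the kinase gene, read 8.05, 8.07 and 8.28, and a second probe set differed by −0.26 from Venus. Of 12 measured amino acid carriers of other families, none was called beside the same shares, and their median was 0.0051 from Venus and 0.028 from C3H10T1/2.

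**Figure D4:**
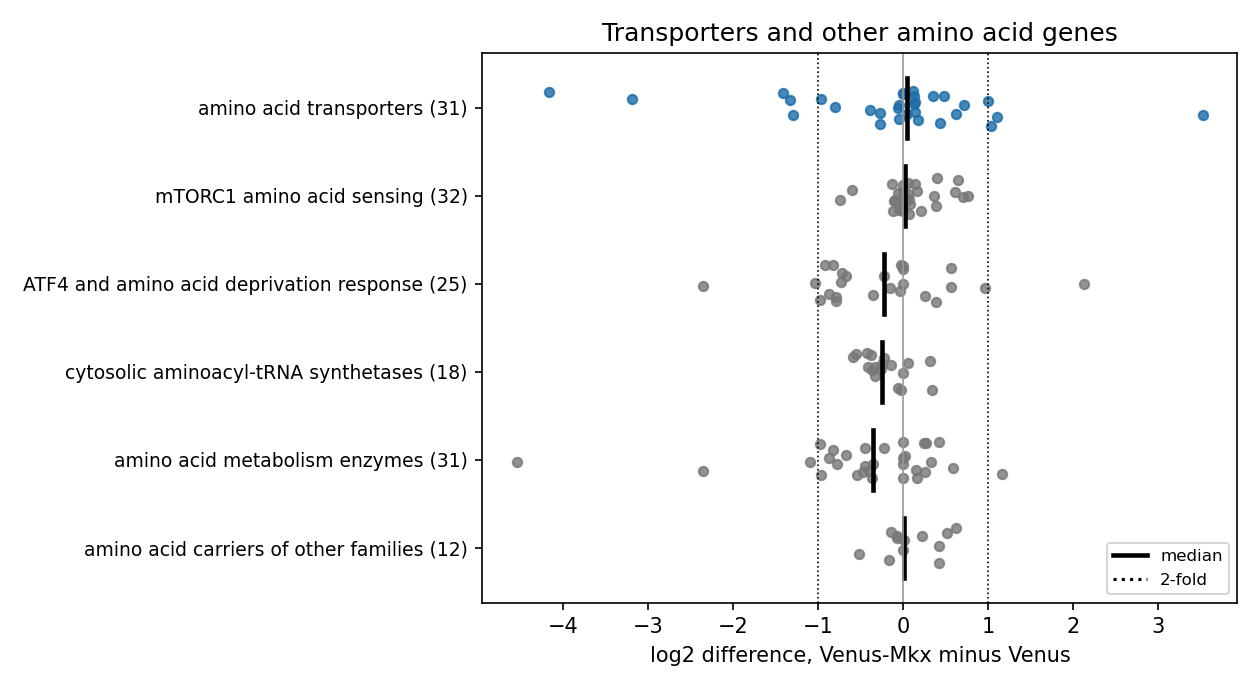
Log2 difference of the array labelled Venus-Mkx from the Venus array, for the measured transporter genes and for 5 lists of other amino acid genes, 1 point per gene with the number of genes in brackets. Black bars are medians and dotted lines mark 2-fold. The transporters reach furthest to the right, at 3.53 for Slc43a2, and Cdo1 of the enzymes lies furthest to the left.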

How the data were processed

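RNA of each condition was amplified with a 3′ IVT Express kit and hybridised to 1 array. The deposited values are log2 signals per probe set, and no further normalization was applied. The methods name MAS 5.0, whereas the submitters' processing notes name RMA, whose version the sources used here do not state. The values run from 1.44 to 14.0, array medians are 4.34, 4.34 and 4.39, and 24.6% of probe sets, 27 of the 118 of transporters, are equal on all arrays. A gene was read by its probe set of highest mean, the floor was the median of all values and the threshold was 2-fold, because 1 array per condition allows no test. Signal over background limits precision under the floor. Symbols came from the array's annotation, and 34945 probe sets had 1 symbol. The members and lists were chosen with earlier results of these data known. Every transporter found by the rule is named. Values are given for those called, the heavy chains, the measured light chains, the 5 with the highest readings and, chosen after their values were seen, others near 2-fold or of known role. Genes of the pathway lists were named when called, besides Atf4 and Mtor. Asns, Psat1, Nupr1, Atf3, Csad and the named markers were added after their values were seen. Alternatives changed the floor, probe sets, scale, control and threshold. The counting was tested on simulated data. Scripts ran in Python 3.11.15 with matplotlib 3.10.9, pandas 2.3.3 and NumPy 2.4.6.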

Additional observations from a re-analysis of the deposited data

How the results depend on the processing

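The 2 transporters called higher became 1 with the floor at the 75th percentile, 1 with arrays centred on their medians, 1 at 3-fold, 4 against Venus alone and 6 at 1.5-fold, and 4 single probe sets were called higher, a count chosen after seeing the data. Slc43a2 was called under each of these settings. The 5 called lower became 2 at 3-fold, which were Slc1a6 and Slc38a1, and 11 single probe sets were called lower. Under the other settings from 5 to 7 genes were called lower, and Slc1a4, Slc1a6, Slc7a2 and Slc7a5 were among them each time. Over the mean of all probe sets Slc1a3 entered that group and Slc38a1 stayed in it. Without the _x_at and _s_at probe sets Slc1a3 entered it and Slc38a1 left it. Slc1a3 also entered with arrays centred, against C3H10T1/2 alone, against the mean of the 2 controls and at 1.5-fold. Slc7a11 entered against C3H10T1/2 alone and at 1.5-fold. Over the mean of all probe sets Slc43a2 differed from Venus by 2.67 in place of 3.53, and Slc38a1 by −2.07 in place of −3.19. Without the _x_at and _s_at probe sets Slc38a1 differed by −0.95. No setting turned the direction of a called gene, and none put a measured transporter apart between the controls, at 1.5-fold included. At 1.5-fold 6.05% of all measured genes were apart, so a count of none in a group this small is no result about transporters. With 1 array per condition no array could be left out, and values under the floor limit what can be read for 27 of the 58 genes.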

Other observations

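Some probe sets close to the rule were left out because their gene is not a carrier, because they name several genes or because the symbol ends in a letter, which the rule does not take. Slc7a6os, a gene on the opposite strand beside Slc7a6, read 7.22 in C3H10T1/2, 6.97 in Venus and 6.14 on the array labelled Venus-Mkx with 1429596_at and 6.05, 6.01 and 6.19 with 1440303_at, so its probe sets disagree. The imino acid carrier genes Slc6a20a and Slc6a20b, left out for their symbols alone, were under the floor on all 3 arrays.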
